A study of Mus musculus with 12 samples.

Results

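The genes described here are 41 macrophage and dendritic cell genes of the mouse proximal colon, taken by their symbols from a count table of 55376 genes. All 41 were found in the table, and 35 of them had enough reads to be tested. RNA-Seq was performed on the first, proximal part of the colon, from 6 EPR fl/fl mice and 6 EPR cKO mice at an age of 12 weeks. EPR is a long noncoding RNA of epithelial cells, listed in the table under the gene symbol Smim31. All 12 mice carried EPR alleles with loxP sites around the promoter and exon 1. In EPR fl/fl mice, which the sample labels call wt, nothing recombines these sites. EPR cKO mice also carried CDX2P-NLS Cre, in which a human CDX2 promoter drives the recombinase in epithelial cells of the colon, cecum and lower ileum. This promoter is an epithelial one, and macrophages and dendritic cells are not among the cells it is meant to target. The tissue was flushed, frozen and homogenized whole, and the sex of the mice is not given in the sources used here. By immunohistochemistry, the study reported more of the macrophage protein AIF1 and of the T cell proteins CD8A and CD4 in EPR cKO colon. RNA of whole tissue is a different measure from stained protein. The RNA comparison addresses whether transcripts of macrophages and dendritic cells differ between the genotypes.

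Macrophages of the colon lie mostly in the lamina propria just below the epithelium, where they take up bacteria and dying cells, and a further population lies in the muscle layers. They are replenished from blood monocytes that enter through the chemokine receptor CCR2, and they depend on signals through the receptor CSF1R. Dendritic cells sample antigen and carry it to lymph nodes. Conventional dendritic cells depend on the receptor FLT3, and their subsets are told apart by factors such as IRF8 and BATF3 on the one hand and IRF4 on the other.

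The libraries held between 13093904 and 33211041 counts, and the total did not differ in mean beyond the spread between libraries (two-sided exact permutation test, p = 0.981). Smim31 was counted 297 to 1474 times in the EPR fl/fl libraries and 0 to 10 times in the EPR cKO libraries, in the direction of the labels. All 12 epithelial and all 12 smooth muscle marker genes passed the filter on low counts. A composition score was formed from them as the mean log2 CPM (counts scaled to a common library total) of the epithelial genes minus that of the smooth muscle genes. It was 0.857 ± 0.248 (SD, n = 6) in EPR fl/fl and 2.01 ± 1.3 (SD, n = 6) in EPR cKO (two-sided exact permutation test, p = 0.0628). EPR cKO 1 stood apart with a score of -0.38, the lowest of the 12 libraries, while the other EPR cKO libraries lay between 1.65 and 3.12, above all EPR fl/fl libraries (0.59 to 1.27). EPR fl/fl 6 stood apart in another way, since it held the highest value of the 12 libraries for 24 of the 35 tested members, against 6.04% of all tested genes. A member's log2 fold change printed below from the fit without the score is therefore followed by its value without EPR fl/fl 6 or EPR cKO 1. This was done where leaving that library out turned the sign or moved the value by over 1.5 times. Counts of some members are uncertain because their sequence is shared: of the 50-base stretches of Lyz2, 15.4% also occur in Lyz1, and the share was 12.3% for Csf2rb (Csf2rb2), 9.58% for Fcgr3 (Fcgr2b), 9.02% for Clec10a (Mgl2) and 8.02% for Itgax (Itgad). Of the exon bases of Csf1r, 17.9% lie opposite exons of Hmgxb3 on the other strand.

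No member differed between EPR cKO and EPR fl/fl past an adjusted p of 0.05 (edgeR quasi-likelihood test, Benjamini-Hochberg over 15952 genes), where 2.46% of all tested genes did. The count was also 0 at an unadjusted p under 0.05, against 18.3% of all tested genes. DESeq2, which called 5.72% of all tested genes, gave 0 calls among the members and 0 at an unadjusted p. Limma-voom, which called 3.15%, gave 0 calls and 3 at an unadjusted p. The log2 fold change was negative for 28 of the 35 tested members, or 80%, compared with 47.1% of all tested genes. The median over the members was -0.29 on the log2 scale, beside 0.02 over all tested genes. The groups overlapped in every tested member, whereas 2.47% of all tested genes had groups that did not overlap. In whole tissue, fewer cells of a type and less RNA per cell cannot be told apart.

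The summed level of the 41 genes was 835 ± 239 CPM (SD, n = 6) in EPR fl/fl and 747 ± 82.1 CPM (SD, n = 6) in EPR cKO. EPR fl/fl 6 reached 1248 CPM, while the other EPR fl/fl libraries lay between 586 and 927 CPM and the EPR cKO libraries between 670 and 860 CPM. Without EPR fl/fl 6, the median log2 fold change of the 35 members was -0.02, and 19 of them were negative. Leaving out any other library kept that median between -0.41 and -0.22. T cell, pan-leukocyte, macrophage activation, mature dendritic cell and NADPH oxidase genes also had their highest sums in EPR fl/fl 6. B and plasma cell, mast cell, eosinophil and neutrophil genes had theirs in EPR cKO libraries. Mast cell genes were nonetheless at a summed CPM of 24.7 in EPR fl/fl 6, against 1.49 to 4.70 in the other EPR fl/fl libraries. The summed CPM of 10 T cell genes was 71.2 in EPR fl/fl 6 and 20.9 to 62.0 in the other EPR fl/fl libraries, and that of 5 pan-leukocyte genes was 179.7 there and 60.4 to 129 in the others. Their part in the members' values was not tested.

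**Figure D1:**
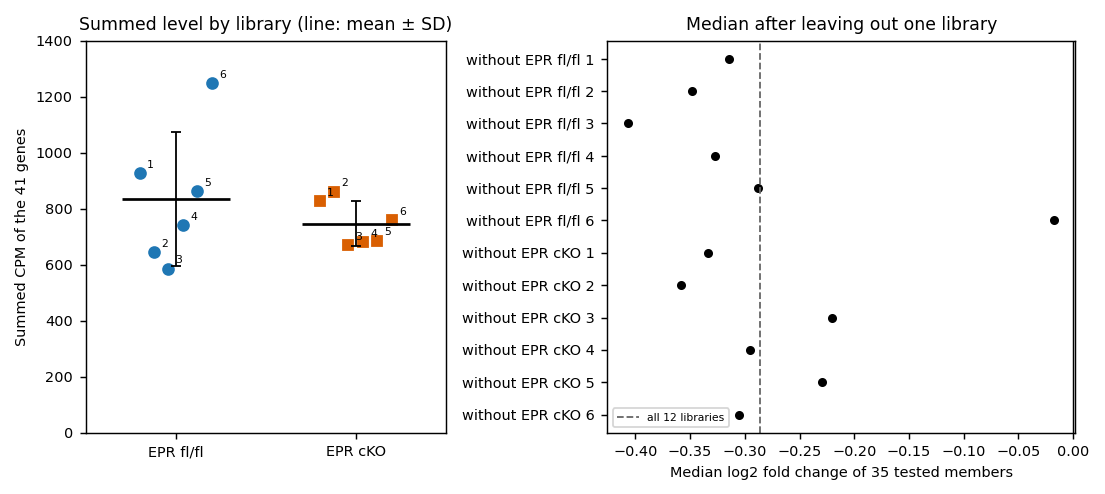
The left panel shows the summed CPM of the 41 genes in each library (points numbered by replicate, line and bar: mean ± SD, n = 6), with EPR fl/fl 6 at 1248 CPM above all others. The right panel shows the median log2 fold change (EPR cKO relative to EPR fl/fl) of the 35 tested members after leaving out each library in turn, which lay at -0.02 without EPR fl/fl 6 and between -0.41 and -0.22 otherwise.

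**Figure D2:**
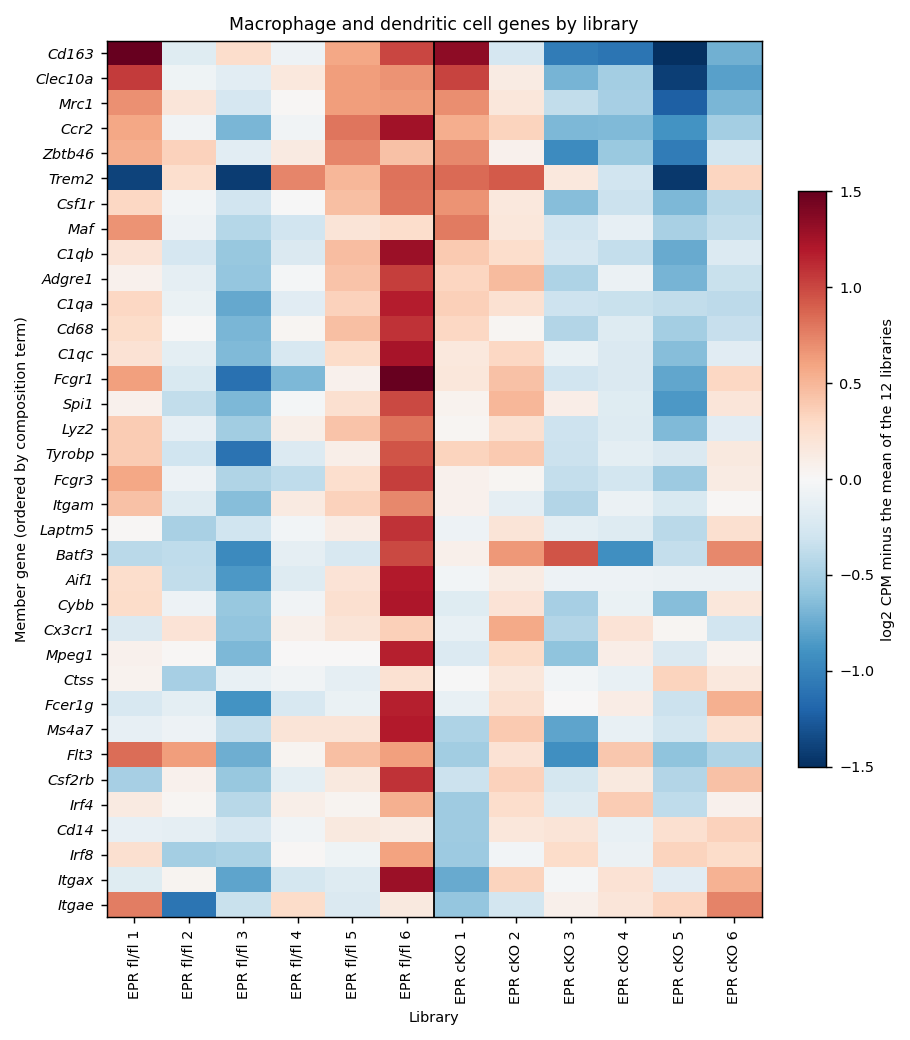
Each row is a tested member and each column a library, and the colour gives log2 CPM minus the mean of the 12 libraries. EPR fl/fl 6 is the darkest red column, holding the highest value for 24 of 35 members, and Cd163, Clec10a and Mrc1 in the top rows are high in EPR cKO 1 and low in EPR cKO 3 to 6.

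Among the genes of macrophage identity, Adgre1 encodes the classic mouse surface marker F4/80. Its CPM in EPR fl/fl 1 to 6 was 16.1, 14.1, 10.3, 15, 20.7 and 31.5, and in EPR cKO 1 to 6 it was 19.3, 21.4, 11.2, 14.5, 9.48 and 12.2. The groups overlapped over most of their range, for a log2 fold change of -0.29 (SE 0.27, edgeR adjusted p = 0.582), and -0.05 without EPR fl/fl 6. With all libraries, the 95% interval of the fold ran from 0.55 to 1.22. Aif1, which encodes the calcium-binding protein IBA1, was at 3.72, 2.40, 1.71, 2.72, 3.58 and 7.08 CPM in EPR fl/fl 1 to 6. It lay between 2.92 and 3.38 CPM in the 6 EPR cKO libraries, inside the EPR fl/fl range and within a much narrower span (SD 0.180 against 1.89). Aif1 had a log2 fold change of -0.21 (SE 0.28, edgeR adjusted p = 0.697), and 0.11 without EPR fl/fl 6. Cd68, a lysosomal glycoprotein, was at 4.72 ± 1.94 CPM in the EPR fl/fl and 3.45 ± 0.787 CPM in the EPR cKO libraries (SD, n = 6 each), a log2 fold change of -0.45 that was -0.22 without EPR fl/fl 6. Cx3cr1, the fractalkine receptor that marks resident gut macrophages, was at 6.53 ± 1.45 and 6.51 ± 1.71 CPM, the closest pair of means among these genes.

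Among the tested genes of macrophage identity, the scavenger receptor genes Cd163 and Mrc1 had the lowest log2 fold changes. Cd163 encodes the receptor that clears haemoglobin bound to haptoglobin. It was at 35.9, 9.56, 13.1, 10.3, 16.2 and 21.6 CPM in EPR fl/fl 1 to 6, and at 27.6, 9.09, 5.25, 5.08, 3.70 and 6.58 CPM in EPR cKO 1 to 6. All EPR cKO libraries except EPR cKO 1 lay below the lowest EPR fl/fl library. The log2 fold change was -0.89 (SE 0.49, edgeR adjusted p = 0.350), and without EPR cKO 1 it was -1.59 (adjusted p = 0.00929). Leaving out EPR cKO 1 put 21.9% of all tested genes past an adjusted p of 0.05, so a call in that setting is common. Mrc1, the mannose receptor CD206, was at 52.8, 37.2, 27.6, 33.3, 50.7 and 51.3 CPM in EPR fl/fl 1 to 6 and at 53.4, 37.0, 25.4, 23.3, 14 and 20.5 CPM in EPR cKO 1 to 6. EPR cKO 1 was the highest of the 12 libraries, EPR cKO 2 lay within the EPR fl/fl range and EPR cKO 3 to 6 lay below it. Mrc1 had a log2 fold change of -0.54 (SE 0.28, edgeR adjusted p = 0.330), and -0.83 without EPR cKO 1 (adjusted p = 0.0267). Ms4a7, a tetraspan membrane protein gene of macrophages, was at 7.08 ± 3.23 and 5.44 ± 1.63 CPM. Trem2, a receptor for lipids, was near the limit of the filter in both groups (0.860 ± 0.468 and 0.920 ± 0.442 CPM). Timd4, which recognizes dying cells and marks long-lived resident macrophages, did not pass the filter, with 182 counts in all and 0.895 ± 0.195 and 0.460 ± 0.254 CPM in overlapping groups. Under the laxer filterByExpr filter of edgeR its log2 fold change was -0.92 (SE 0.35, edgeR adjusted p = 0.213), lower than that of Cd163 under the main filter. The laxer filter kept Timd4 through its EPR fl/fl libraries, the group where it is higher.

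C1qa, C1qb and C1qc encode the 3 chains of complement C1q, which in the gut comes mainly from macrophages. They are neighbours on the minus strand of chromosome 4 within 18.7 kb (mm10, 136880129 to 136898803). Per length these were among the highest members, at 29.8 ± 14.4, 24.2 ± 12.7 and 19.7 ± 10.2 CPM per kilobase of exon (RPKM) in EPR fl/fl and 23.2 ± 5.76, 18.5 ± 5.37 and 15.7 ± 3.50 RPKM in EPR cKO (SD, n = 6). C1qa was at 32.1, 24.1, 15.2, 23.1, 33.0 and 58.6 CPM in EPR fl/fl 1 to 6 and at 33.2, 30.2, 20.9, 20.5, 20.0 and 19.8 CPM in EPR cKO 1 to 6. EPR fl/fl 6 was the highest and EPR fl/fl 3 the lowest library. The log2 fold changes of the 3 genes were -0.36, -0.39 and -0.32 (edgeR adjusted p = 0.495, 0.501 and 0.547), and -0.08, -0.07 and -0.00 without EPR fl/fl 6.

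The C1q genes varied together between libraries, and the residuals of C1qb and C1qc after removal of the group means had a Pearson correlation of 0.976 over 12 libraries. Their promoters are shown with those of Mrc1 and Cd163, which were among the members called without EPR cKO 1, where 21.9% of all tested genes were called. The sequences are from RefSeq (GRCm38.p6) and run 5′ to 3′ on the strand of the gene, from 250 bases before to 50 after the start. Capitals mark GAGGAA or its reverse complement TTCCTC, the core of the site bound by PU.1, the factor that specifies myeloid cells and is encoded by the member Spi1.
C1qb, chr4:136886151-136886450, minus strand: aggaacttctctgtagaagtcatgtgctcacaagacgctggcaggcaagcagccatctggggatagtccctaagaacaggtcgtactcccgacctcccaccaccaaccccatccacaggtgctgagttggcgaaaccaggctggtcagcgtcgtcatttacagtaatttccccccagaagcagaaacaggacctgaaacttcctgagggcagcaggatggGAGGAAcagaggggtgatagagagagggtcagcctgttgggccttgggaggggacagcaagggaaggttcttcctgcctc
C1qc, chr4:136892865-136893164, minus strand: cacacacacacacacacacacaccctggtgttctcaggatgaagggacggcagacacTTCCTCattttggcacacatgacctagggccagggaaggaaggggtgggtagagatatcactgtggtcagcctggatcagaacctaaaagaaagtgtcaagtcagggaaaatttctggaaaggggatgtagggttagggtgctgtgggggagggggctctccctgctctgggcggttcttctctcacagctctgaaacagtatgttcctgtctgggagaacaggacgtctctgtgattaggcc
Mrc1, chr2:14229164-14229463, plus strand: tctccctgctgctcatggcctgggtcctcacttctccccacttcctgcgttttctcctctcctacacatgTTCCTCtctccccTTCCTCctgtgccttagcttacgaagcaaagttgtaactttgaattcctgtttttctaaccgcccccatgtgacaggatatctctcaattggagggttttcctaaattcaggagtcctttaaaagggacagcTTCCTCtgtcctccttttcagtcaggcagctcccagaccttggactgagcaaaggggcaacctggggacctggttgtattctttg
Cd163, chr6:124304401-124304700, plus strand: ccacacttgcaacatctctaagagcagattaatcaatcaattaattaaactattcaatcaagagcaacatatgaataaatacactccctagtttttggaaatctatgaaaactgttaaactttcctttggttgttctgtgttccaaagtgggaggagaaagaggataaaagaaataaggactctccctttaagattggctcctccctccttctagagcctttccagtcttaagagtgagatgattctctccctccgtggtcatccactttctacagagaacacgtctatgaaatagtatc
C1qb and C1qc each held 1 match, Mrc1 held 3 and Cd163 held 0. Promoter sequences were at hand for 30 of the 41 members, and 16 of these 30 (53.3%) held GAGGAA on either strand, beside 31.3% of 27025 genes. The longer GAGGAAGT, which contains the core, was in 2 members, C1qc and Ctss (6.67%, beside 3.69% of genes). The composite element read by PU.1 together with IRF8 or IRF4, GGAA and then GAAA after a gap of 2 bases, was in Cd209a, Cd68, Cybb and Timd4 (13.3%, beside 3.16% of genes). A match to these letters is a description of the sequence and not a measured site.

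Of the Fc receptors and their adaptors, 4 of 5 could be tested and 3 had a negative log2 fold change. Fcgr1, the high-affinity IgG receptor, was at 2.24 ± 1.81 CPM in the EPR fl/fl and 1.71 ± 0.502 CPM in the EPR cKO libraries, and Fcgr3, a low-affinity one, at 10.8 ± 4.58 and 8.21 ± 1.5 CPM. Fcer1g and Tyrobp encode adaptor proteins that carry the signal of these and other receptors into the cell. Fcer1g was at 4.26 ± 2.42 and 4.33 ± 0.908 CPM and Tyrobp at 9.36 ± 4.38 and 9.07 ± 1.88 CPM. None of the 4 had an edgeR adjusted p below 0.404. The inhibitory receptor gene Lilrb4a was counted 0 times in all 12 libraries, where 93.3% of its exon bases also belong to the annotated gene Gm49339 on the same strand.

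The 2 most abundant members per length were lysosomal genes. Ctss, the protease cathepsin S that trims the invariant chain of MHC class II, led with 140 ± 22.4 RPKM in EPR fl/fl and 157 ± 18.4 RPKM in EPR cKO. Its log2 fold change was 0.16 (SE 0.11, edgeR adjusted p = 0.454). Lyz2, the lysozyme of phagocytes, followed with 95.1 ± 30.1 and 72.3 ± 15.1 RPKM. In CPM, Lyz2 was at 138, 97.5, 73.7, 113, 142 and 187 in EPR fl/fl 1 to 6 and at 108, 125, 85.0, 92.3, 66.9 and 93.8 in EPR cKO 1 to 6. The groups overlapped between 73.7 and 125 CPM, for a log2 ratio of -0.39 (SE 0.20, edgeR adjusted p = 0.324), and -0.24 without EPR fl/fl 6. Mpeg1, a pore-forming protein of phagosomes, was at 35.3 ± 16.9 and 29.1 ± 6.03 CPM. Cybb, the catalytic subunit of the phagocyte NADPH oxidase, was at 14.5 ± 6.85 and 10.9 ± 2.5 CPM. Laptm5, a lysosomal membrane protein of blood cells, was at 22.0 ± 9.99 and 19.1 ± 3.23 CPM. In Mpeg1, Cybb and Laptm5 the highest library was EPR fl/fl 6, and leaving it out moved their log2 fold changes from -0.28 to 0.02, from -0.42 to -0.13 and from -0.21 to 0.08.

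Of the 3 integrin genes and Cd14, 2 had a negative and 2 a positive log2 fold change. Itgax encodes CD11c, an integrin of dendritic cells and gut macrophages. Its CPM was 6.86, 7.97, 4.49, 6.48, 6.79 and 18.9 in EPR fl/fl 1 to 6 and 4.61, 9.77, 7.65, 9.0, 6.93 and 11.2 in EPR cKO 1 to 6. Apart from EPR fl/fl 6, no EPR fl/fl library exceeded 7.97 CPM. Itgax had a log2 fold change of -0.06 (SE 0.32, edgeR adjusted p = 0.926), 0.33 without EPR fl/fl 6 and 0.04 without EPR cKO 1. Itgam, or CD11b, was at 2.72 ± 0.852 and 2.17 ± 0.261 CPM, and 70.0% of its exon bases also belong to the annotated gene Gm49368 on the same strand, so that its level is uncertain. Itgae, or CD103, which intraepithelial T cells carry as well as dendritic cells, was at 14.3 ± 5.92 and 15.4 ± 4.92 CPM. Cd14, the coreceptor for bacterial endotoxin, was at 13.8 ± 1.52 and 15 ± 3.01 CPM.

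Among the growth factor and chemokine receptors, Csf1r was at 42.8, 33.5, 28.3, 34.5, 47.2 and 60.2 CPM in EPR fl/fl 1 to 6. In EPR cKO 1 to 6 it was at 55.1, 38.8, 22.3, 27.6, 21.8 and 25.9 CPM. EPR cKO 1 and 2 lay among the EPR fl/fl libraries and EPR cKO 3 to 6 below the lowest of them. The log2 fold change was -0.36 (SE 0.24, edgeR adjusted p = 0.442), -0.22 without EPR fl/fl 6, and -0.61 without EPR cKO 1 (adjusted p = 0.0491, where 21.9% of all tested genes were called). Ccr2 was at 13.2, 8.52, 5.47, 8.53, 15.4 and 21.1 CPM in EPR fl/fl 1 to 6 and at 12.9, 11.2, 5.55, 5.57, 4.73 and 6.21 CPM in EPR cKO 1 to 6. Its groups overlapped, with EPR cKO 1 and 2 again the highest of their group, and the log2 fold change was -0.64 (SE 0.34, edgeR adjusted p = 0.338). It was -0.40 without EPR fl/fl 6 and -0.87 without EPR cKO 1. Flt3 was counted 270 times in all and was at 1.24 ± 0.402 and 0.803 ± 0.298 CPM (log2 fold change -0.59, SE 0.30, edgeR adjusted p = 0.319). Csf2rb, the shared chain of the receptors for GM-CSF, IL-3 and IL-5, was at 5.86 ± 2.86 and 5.43 ± 1.39 CPM.

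Most dendritic cell receptor genes were too low to pass the filter, and only Clec10a, a lectin of macrophages and type 2 conventional dendritic cells, was tested. Clec10a ranged from 3.19 to 7.38 CPM in EPR fl/fl (median 4.75) and from 1.34 to 7.19 CPM in EPR cKO (median 2.35), with the highest EPR cKO value in EPR cKO 1. The log2 fold change was -0.60 (SE 0.37, edgeR adjusted p = 0.403), and -1.03 without EPR cKO 1 (adjusted p = 0.0259, where 21.9% of all tested genes were called). Clec9a encodes a receptor for dead cells on type 1 conventional dendritic cells, and it had 227 counts in all. Its CPM was 1.10, 1.43, 0.822, 0.875, 1.43 and 1.39 in EPR fl/fl 1 to 6, from 15 to 44 counts a library, and 0.604, 0.677, 0.4, 0.624, 0.466 and 0.265 in EPR cKO 1 to 6, from 5 to 16 counts. Every EPR cKO library lay below every EPR fl/fl library. With filterByExpr, under which 2.18% of 17502 genes were called, Clec9a was the only member called (log2 fold change -1.20, SE 0.26, edgeR adjusted p = 0.0296). It was kept by that filter through its EPR fl/fl libraries, the group where it is higher. This call and its other values under filterByExpr therefore give no separate support for a difference. With no filter on low counts the adjusted p was 0.0631, and with the composition score added under filterByExpr it was 0.126 (log2 fold change -1.02, SE 0.31). Leaving out 1 library at a time under filterByExpr kept the log2 fold change between -1.3 and -1.06, but the adjusted p passed 0.05 without EPR fl/fl 1, 2, 5 or 6 or EPR cKO 3, 5 or 6, reaching 0.0763 at most.

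Siglech, a lectin of plasmacytoid dendritic cells, was the other member whose groups did not overlap. It had 6 to 24 counts in each EPR fl/fl library (0.511 ± 0.201 CPM, SD, n = 6) and 0 to 5 counts in each EPR cKO library (0.150 ± 0.0870 CPM, SD, n = 6). Among the 20742 genes with counts that did not pass the filter, groups did not overlap in 0.236%. Without a filter the adjusted p of Siglech was 0.0975 (edgeR), and in EPR cKO 1 and 3 it stood at or below the floor of 3 counts. Xcr1, the chemokine receptor of the same type 1 cells as Clec9a, overlapped between the groups (0.324 to 1.13 and 0.265 to 1.10 CPM), and its log2 fold change under filterByExpr was -0.28 (SE 0.43, edgeR adjusted p = 0.749), -0.08 without EPR fl/fl 6 and -0.13 without EPR cKO 1. Cd209a, a lectin of the DC-SIGN family, was at 0.758 ± 0.154 and 0.442 ± 0.224 CPM (edgeR adjusted p = 0.273 under filterByExpr, which kept it too through its EPR fl/fl libraries).

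Of the 6 transcription factor genes, 4 had a negative log2 fold change. Spi1, which encodes PU.1, was at 3.60 ± 1.56 CPM in the EPR fl/fl and 3.32 ± 0.931 CPM in the EPR cKO libraries. Irf8, a factor of type 1 conventional dendritic cells and monocytes that B cells also express, was at 77.4 ± 23.4 and 79.7 ± 16.8 CPM. Irf4, which type 2 dendritic cells and plasma cells use, was at 7.40 ± 1.55 and 6.78 ± 1.69 CPM. Batf3, needed by type 1 conventional dendritic cells, had the highest log2 fold change of all tested members, 0.38 (SE 0.38, edgeR adjusted p = 0.607), from 196 counts in all, and 0.71 without EPR fl/fl 6. Zbtb46, a factor of conventional dendritic cells that endothelium also expresses, ranged from 2.24 to 4.15 CPM (median 3.28) in EPR fl/fl and from 1.21 to 4.12 CPM (median 1.88) in EPR cKO, where the highest library was EPR cKO 1. Its log2 fold change was -0.57 (SE 0.29, edgeR adjusted p = 0.315), and -0.87 without EPR cKO 1 (adjusted p = 0.0223, where 21.9% of all tested genes were called). Maf, a factor of mature macrophages that other tissue cells express too, was at 37.9 ± 11 and 35.7 ± 13.2 CPM.

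Adding the composition score to the fit left 0 of 35 members past an adjusted p of 0.05 (edgeR), where 2.04% of all tested genes passed, and 0 at an unadjusted p under 0.05, where 15% did. DESeq2 and limma-voom with the score also gave 0 calls and 0 at an unadjusted p. The median log2 fold change of the members was -0.14 with the score, beside 0.01 over all tested genes, and 26 of 35 were negative. Cd163 went from -0.89 to -0.36 (SE 0.36), Ccr2 from -0.64 to -0.21 (SE 0.34), Clec10a from -0.60 to -0.09 (SE 0.26) and Mrc1 from -0.54 to -0.11 (SE 0.20). For Csf1r the value with the score was 0.00 (SE 0.20) and for Adgre1 0.02 (SE 0.29). Flt3 moved the other way, from -0.59 to -0.65 (SE 0.38, edgeR adjusted p = 0.461), the lowest of the tested members with the score. Itgae went from 0.11 to -0.29 (SE 0.31) and Cd14 from 0.12 to -0.12 (SE 0.13), and without EPR cKO 1 they stood at 0.21 and 0.20 in the fit without the score. The values with the score also hinged on EPR cKO 1. Without it they were -0.74 for Cd163, 0.23 for Ccr2, 0.10 for Clec10a, 0.21 for Mrc1 and 0.07 for Csf1r. Those of Adgre1, Flt3, Itgae and Cd14 were then 0.58, -0.38, -0.48 and 0.18. With the epithelial mean alone as covariate the median of the members was -0.45, with 5 of 35 at an unadjusted p under 0.05, and with the smooth muscle mean alone it was -0.10, with 0. The median SE of the members was 0.27 without and 0.31 with the score.

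**Figure D3:**
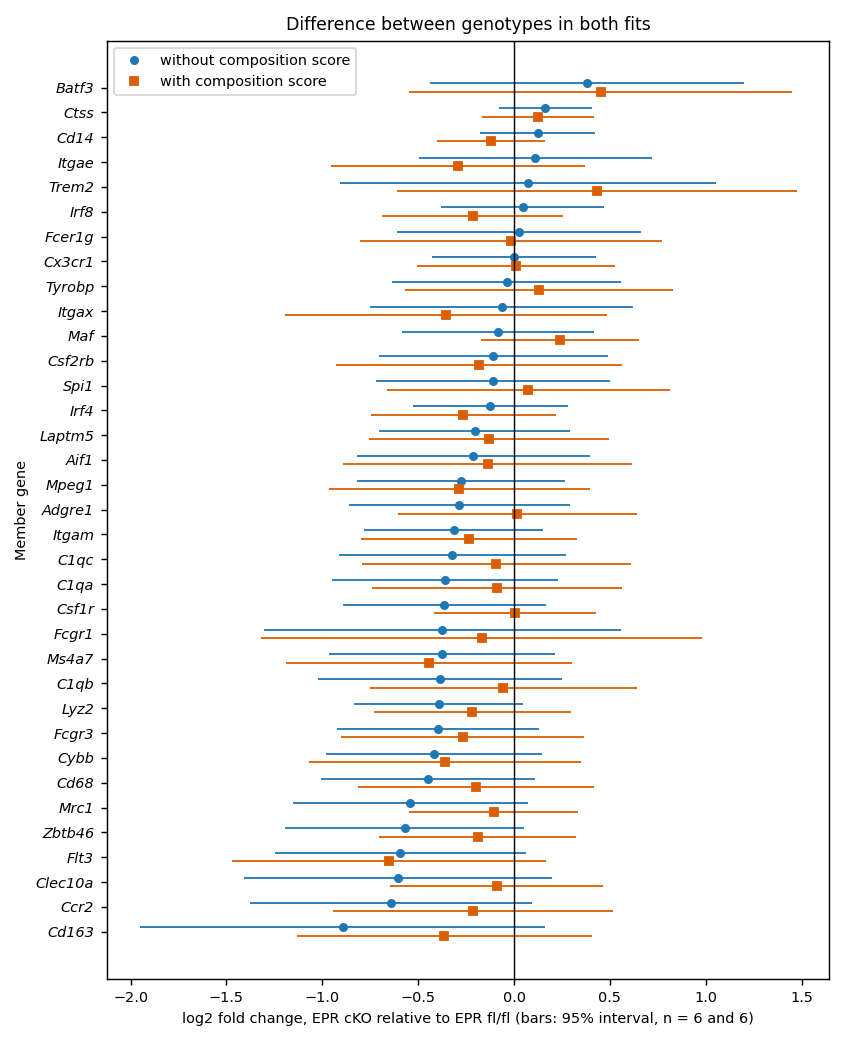
Points give the log2 fold change of each tested member (EPR cKO relative to EPR fl/fl, n = 6 and 6) without the composition score (blue circles) and with it (orange squares), and bars the 95% interval. Every bar crosses 0, and Cd163 moves from -0.89 to -0.36 when the score is added.

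The score itself was tested as a term of that fit, which asks how a gene changes from library to library as epithelial RNA increases relative to smooth muscle RNA, within the groups. This term was past an adjusted p of 0.05 for 7 of 35 members, against 31.9% of all tested genes. Clec10a fell by 0.61 on the log2 scale for each unit of the score (SE 0.12, edgeR adjusted p = 0.00185), Cd163 by 0.74 (SE 0.16, adjusted p = 0.00311) and Mrc1 by 0.47 (SE 0.10, adjusted p = 0.00207). The term was also negative for Zbtb46 (-0.41, SE 0.11), Csf1r (-0.37, SE 0.09) and Maf (-0.34, SE 0.09). It was positive for Cd14 alone among the called members (0.19, SE 0.06, adjusted p = 0.0368). The C1q genes had terms of -0.25, -0.30 and -0.20, none of which passed, and Adgre1 had -0.28 (SE 0.14, adjusted p = 0.148). Of genes that are not part of the score, 4 of 5 adipocyte, 7 of 8 endothelial and 6 of 6 fibroblast genes had a negative term that passed the same threshold, against 18.7% of all tested genes. So did 4 of 11 further resident macrophage, 2 of 11 other myeloid receptor and 2 of 4 monocyte genes that were tested. A positive term passed for 0 of the genes in these lists. Other lists went the other way. The term was negative for 0 of 10 T cell, 0 of 4 tested B and plasma cell and 0 of 5 NADPH oxidase genes, with medians of 0.30, 0.41 and 0.14. A positive term passed for 0, 1 and 0 of these, against 13.3% of all tested genes.

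**Figure D4:**
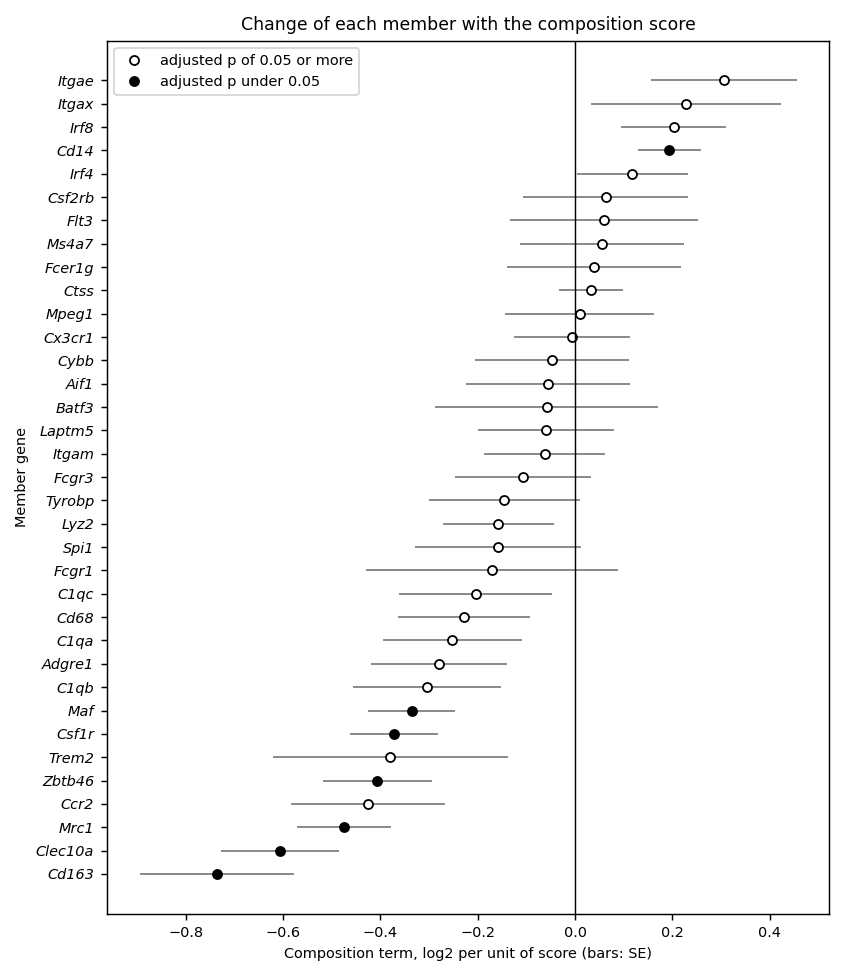
Each point is the composition term of a tested member, the change in log2 expression per unit of the score in a fit with the genotype, and bars are its SE. Filled points mark the 7 members past an adjusted p of 0.05, of which Cd163, Clec10a, Mrc1, Zbtb46, Csf1r and Maf are negative and Cd14 is positive.

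The calls of this term were lost without EPR cKO 1, while most of the called members kept a term of similar or larger size with a wider error. Without that library it was past the threshold for 0 of 35 members and for 5.24% of all tested genes, with 2 members at an unadjusted p under 0.05. Cd163 then had a term of -0.54 (SE 0.40, edgeR adjusted p = 0.483) and Mrc1 of -0.67 (SE 0.22, adjusted p = 0.0958), while that of Cd14 was 0.02 (SE 0.13). The terms of Clec10a, Csf1r, Zbtb46 and Maf were -0.73 (SE 0.29), -0.42 (SE 0.21), -0.33 (SE 0.27) and -0.30 (SE 0.22). The median term of the 35 members was -0.30 without EPR cKO 1 and -0.11 with it. Within the 6 EPR cKO libraries alone, 12 of 35 members were called, beside 33.4% of all tested genes. Within the 6 EPR fl/fl libraries, whose scores span a narrow range, 0 members and 0% of all tested genes were called, and 0 members had an unadjusted p under 0.05 (edgeR). EPR cKO 1 was also the library with the most smooth muscle RNA, with a summed CPM of 11579 for the 12 smooth muscle genes against 3900 to 6699 in EPR fl/fl.

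**Figure D5:**
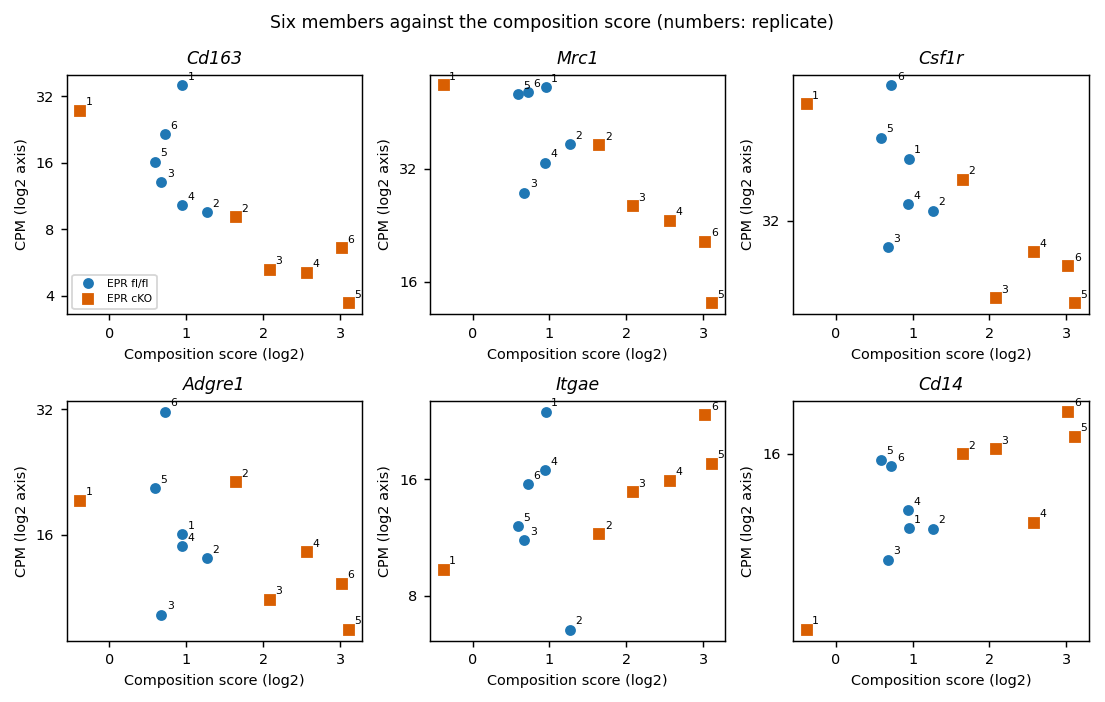
Each panel plots CPM on a log2 axis against the composition score for the 12 libraries (circles EPR fl/fl, squares EPR cKO, numbers give the replicate). Cd163, Mrc1 and Csf1r are low where the score is high and EPR cKO 1 lies at the left end of each panel, with a score of -0.38, where Cd14 is at its lowest.

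The comparison of the genotypes also changed without EPR cKO 1. With no score, 5 members were then lower in EPR cKO at an adjusted p under 0.05 (Mrc1, Cd163, Csf1r, Clec10a and Zbtb46, with log2 fold changes of -0.83, -1.59, -0.61, -1.03 and -0.87, edgeR), at a rate of 14.4% of all tested genes lower and 21.9% in either direction. All 5 are among the members with a negative composition term above. The composition score differed more between the groups in these 11 libraries, by 1.63, with every EPR cKO library above every EPR fl/fl library. Leaving out the only EPR cKO library whose score was not above them fixed this separation, so no test of it is given. With the score added, 0 of 35 members were called without EPR cKO 1 and 0 had an unadjusted p under 0.05 (edgeR), where 0.0251% of all tested genes were called, and the median log2 fold change was 0.19, positive for 27 members. Genotype and tissue composition cannot be told apart in those 11 libraries. Over all 12 libraries, EPR cKO 1 was the only EPR cKO library not above the EPR fl/fl scores, so the fit with the score leans on it. Whether the deletion itself changes the score was not tested.

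The members varied together within the groups. Over all 595 pairs of tested members, the median Pearson correlation of residual log2 CPM over 12 libraries was 0.615 after the group means were removed and 0.699 after group and score, while it was about 0 (-0.00 in both) over pairs of all tested genes. The points share libraries and depth, and EPR fl/fl 6 is among them, so the correlations are a description. Csf1r and Adgre1 had 0.907 before and 0.928 after removal of the score, and Fcer1g and Itgax 0.928 and 0.979. Mrc1 and Cd163 had 0.861 before and 0.618 after. Itgae and Cd163 had -0.02 before and 0.656 after. The members least like the mean of the others after removal of group and score were Itgae (0.322), Ctss (0.449), Cd163 (0.528), Trem2 (0.539) and Cd14 (0.574), and the most alike was Cybb (0.982).

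Genes that act on macrophages and dendritic cells were examined from separate lists. Of 12 growth factor and chemoattractant genes, 9 were tested and 0 were called in either fit (edgeR). At an unadjusted p under 0.05 there were 0 without the score and 1 with it, against 18.3% and 15% of all tested genes. Csf1, a ligand of CSF1R, was at 12.2 ± 2.23 and 10.0 ± 5.26 CPM, and its composition term was -0.48 (SE 0.07, edgeR adjusted p = 0.000236), of the same sign as that of Csf1r. The other ligand gene, Il34, was at 1.71 ± 0.151 and 1.87 ± 0.430 CPM. Flt3l, which encodes the ligand of FLT3, was at 1.5 ± 0.401 and 1.19 ± 0.286 CPM. Cx3cl1, the ligand of CX3CR1 made by epithelium, was at 54.2 ± 4.65 and 58.5 ± 7.57 CPM. Ccl2, which encodes a ligand of CCR2, did not pass the filter (0.689 ± 0.386 and 0.545 ± 0.303 CPM).

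Of 11 tested genes for other myeloid receptors, 1 was called lower in EPR cKO, where 2.46% of all tested genes were called in either direction. It was Tlr2, a receptor for bacterial lipoproteins that epithelium also expresses, at 41.2 ± 9.15 and 26.4 ± 2.01 CPM (log2 fold change -0.64, SE 0.14, edgeR adjusted p = 0.0267). With the composition score its value was -0.59 (adjusted p = 0.109). Of 3 tested genes of mature dendritic cells, 1 was called lower beside the same share: Cd83, which B cells express as well, at 7.68 ± 2.08 and 4.38 ± 0.769 CPM (log2 fold change -0.82, SE 0.20, edgeR adjusted p = 0.0466). With the score its value was -0.83 (adjusted p = 0.116). In the lists of 8 other myeloid transcription factors, 12 further resident macrophage genes, 6 monocyte genes, 9 macrophage activation genes and 5 NADPH oxidase subunits, 0 genes were called in either fit (edgeR). Without the score, 0, 2, 2, 1 and 0 of them had an unadjusted p under 0.05, against 18.3% of all tested genes. Their median log2 fold changes without the score were -0.07, -0.30, -0.09, -0.75 and -0.18 over 8, 11, 4, 6 and 5 tested genes.

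Markers of other cells in the tissue bear on how the members are read, and their part in the values above was not tested. The leukocyte gene Ptprc, or CD45, was at 51.5 ± 17.2 CPM in the EPR fl/fl and 42.8 ± 8.16 CPM in the EPR cKO libraries (log2 fold change -0.26, SE 0.21, edgeR adjusted p = 0.507). All 5 pan-leukocyte genes and all 10 T cell genes had a negative log2 fold change, with medians of -0.27 and -0.33, and 0 were called (edgeR). At an unadjusted p under 0.05 there were 0 and 1, against 18.3% of all tested genes. With the score the medians of the pan-leukocyte and T cell genes were -0.50 and -0.68, and 0 were called (edgeR). At an unadjusted p under 0.05 there were then 0 and 3, against 15% of all tested genes. Of 7 neutrophil genes, 0 passed the filter, with a summed CPM of at most 2.34 in any library. The summed CPM of 7 mast cell genes was 1.49 to 24.7 in EPR fl/fl and 5.49 to 50.2 in EPR cKO, that of 5 eosinophil genes 3.24 to 5.66 and 3.82 to 8.47, and that of 6 B and plasma cell genes 122 to 314.5 and 128 to 361. Adipocyte genes had a median log2 fold change of -1.40 (0 of 5 called, 4 of 5 at an unadjusted p under 0.05), with a summed CPM of 308 to 902 and 45.9 to 663. Endothelial genes had a median of -0.41 without and 0.07 with the score, and fibroblast genes -0.12 and 0.30, with 0 called in each and 1 and 0 at an unadjusted p under 0.05 without the score.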

How the data were processed

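Total RNA was taken from the proximal colon, in 6 mice of the EPR fl/fl and 6 of the EPR cKO genotype. It was depleted of ribosomal RNA and sequenced from stranded libraries. Per the submitters' processing notes and the study's methods, reads were trimmed with Trimmomatic, aligned to mm10 (GRCm38) with STAR 2.5.3a and counted per gene with featureCounts. The authors deposited raw counts, not normalized and not filtered. The strand setting and the treatment of reads with several alignments are not given in the sources used here. Groups came from the sample labels, with 1 library per mouse, and 0 columns had no sample. The closest of 30 pairs of libraries within a group differed by 24.7 times the sampling noise (chi-square per gene), so none was a repeat.

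Genes with at least 1 CPM in at least 4 libraries were kept, which left 15952 of 36694 genes with any count. Counts were scaled by TMM and tested with the quasi-likelihood test of edgeR 4.0.16 (R 4.3.3), with and without the composition score (log2 CPM, prior count of 2), and p-values were adjusted by the Benjamini-Hochberg method over all tested genes. Standard errors (SE) were derived from each estimate and its F statistic. The composition score and total counts were compared by two-sided exact permutation tests over 924 assignments. RPKM used the exon length in the table. The code was tested on simulated counts. Alternatives were limma 3.58.1 (voom), DESeq2 1.42.0, other filters and scalings, other covariates, a replicate block and leaving out libraries. Leaving out EPR fl/fl 6 and EPR cKO 1 together, all alternatives of the composition term, fits of the score within a group, and leave-one-out under filterByExpr were chosen after seeing the data. The members and all lists were chosen with earlier results of these data known. All 41 members are named, with values in each library for Adgre1, Csf1r, Aif1, C1qa, Lyz2, Itgax and Ccr2 by that rule, and for Cd163, Mrc1 and Clec9a, which were chosen after their values were seen. Genes of other lists are named where an adjusted p was under 0.05, and Ptprc, Csf1, Il34, Flt3l, Cx3cl1 and Ccl2 in any case.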

Additional observations from a re-analysis of the deposited data

Results flagged for a closer look

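In 11 sets of values, the highest library lay further from the others of its group than a Dixon test at the 95% level allows. The test was run on 74 sets of 6 libraries, of which chance would flag about 1 in 20, or 3.7.

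In EPR fl/fl, 9 of the 11 concerned EPR fl/fl 6. Ms4a7 was at 13.5 CPM there (4.58 to 6.74 in the other EPR fl/fl libraries), C1qc at 47.2 (12.7 to 24.2), Fcer1g at 9.07 (2.18 to 3.79), Mpeg1 at 68.3 (19.2 to 31.9) and Cybb at 27.7 (8.03 to 14.5). Laptm5 was at 41.7 CPM (14.1 to 21.4), Itgax at 18.9 (4.49 to 7.97), Csf2rb at 11.4 (3.60 to 5.94) and Batf3 at 1.34 (0.348 to 0.616). Among all tested genes, EPR fl/fl 6 lay apart in the same way for 2.03%.

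In EPR cKO, Cd163 was at 27.6 CPM in EPR cKO 1 and between 3.70 and 9.09 in the others, and EPR cKO 1 lay apart for 12.6% of all tested genes. Aif1 was at 3.38 CPM in EPR cKO 2 and between 2.92 and 3.02 in the others, a difference that stands out only because those values are close together.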

How the results depend on the processing

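The count of members called was 0 with and without the composition score under DESeq2 size factors, total counts, no low-count filter, DESeq2, limma-voom and the epithelium or smooth muscle mean as covariate. Without the score it was 1 with filterByExpr, 4 with limma-voom and quality weights (Mrc1, Cd163, Clec10a and Zbtb46, where 3263 of all genes were called), 4 without both EPR fl/fl 6 and EPR cKO 1 (the same 4 genes) and 0 to 5 when single libraries were left out, with 5 without EPR cKO 1. With the score it was 0 when single libraries were left out. The count for the composition term was 7, beside 31.9% of all tested genes. It was 3 with the epithelium mean in place of the score (Itgax, Cd14 and Irf8, beside 13.1%), 0 without both EPR fl/fl 6 and EPR cKO 1 (4.68%), 0 within EPR fl/fl (0%), 12 within EPR cKO (33.4%), and 0 to 9 when single libraries were left out, with 0 without EPR cKO 1. The median log2 fold change of the members lay between -0.41 and -0.02 over the libraries left out, and with the score between -0.27 and 0.19. It was -0.45 with the epithelium mean and -0.10 with the smooth muscle mean as covariate. The difference in composition score lay between 0.935 and 1.63. The causes were not tested. Without the score, genes called over all tested genes ran from 87 (epithelium mean as covariate) to 3495 (without EPR cKO 1), against 392. With the score, 325 were called, 4 without EPR cKO 1 and 7 without both libraries.

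The replicate numbers of the libraries are not stated to pair animals, and only 2 of 6 same-numbered pairs had deviations correlated above 0.1 (0.0972, -0.0633, -0.0954, 0.340, -0.242 and 0.253). Each number was its own best match in 2 of 6 cases. With a replicate block, 0 members and 245 of all genes were called without the score, 0 members and 148 of all genes with it, and the composition term was called for 2 members, Cd163 and Csf1r, and for 3099 of all genes. Tyrobp (0.062) and Itgax (0.043) changed sign under the block.

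No member was past the threshold under the setting where its sign differed. These log2 fold changes are given by setting. With the composition score added the sign turned for Adgre1 (0.016), Cx3cr1 (0.0097), Fcer1g (-0.017), Tyrobp (0.13), Itgae (-0.29), Cd14 (-0.12), Csf1r (0.0034), Spi1 (0.075), Irf8 (-0.22) and Maf (0.24). With the smooth muscle mean alone as covariate the sign turned for Adgre1 (0.039), Cx3cr1 (0.018), C1qb (0.0028), Tyrobp (0.19), Itgae (-0.22), Cd14 (-0.059), Spi1 (0.14), Irf8 (-0.13) and Maf (0.22). With limma-voom the sign turned for Aif1 (0.019), Cx3cr1 (0.035), Tyrobp (0.17) and Itgax (0.10). With limma-voom and quality weights the sign turned for Aif1 (0.0041), Trem2 (-0.11), Tyrobp (0.070), Itgax (0.20) and Csf2rb (0.0082). Without both EPR fl/fl 6 and EPR cKO 1 the sign turned for Aif1 (0.10), Cx3cr1 (0.087), Fcgr1 (0.13), Tyrobp (0.14), Mpeg1 (0.032), Laptm5 (0.070), Itgax (0.43), Csf2rb (0.24), Spi1 (0.13) and Irf4 (0.051). With total counts in place of TMM the sign turned for Fcer1g (-0.00082). With no low-count filter the sign turned for Fcer1g (-0.00037). With the epithelium mean alone as covariate the sign turned for Fcer1g (-0.36), Itgae (-0.33), Cd14 (-0.22), Irf8 (-0.42), Batf3 (-0.21) and Maf (0.060). The composition terms of Cd14 (-0.23) and Maf (0.036) had the opposite sign within EPR fl/fl. When single libraries were left out, the sign turned for Aif1 (-0.36 to 0.11), Cx3cr1 (-0.13 to 0.077), Trem2 (-0.12 to 0.28), Fcgr1 (-0.56 to 0.17), Fcer1g (-0.11 to 0.40), Tyrobp (-0.20 to 0.21), Mpeg1 (-0.40 to 0.022), Laptm5 (-0.31 to 0.078), Itgax (-0.20 to 0.33), Itgae (-0.042 to 0.30), Csf2rb (-0.22 to 0.19), Spi1 (-0.23 to 0.15), Irf8 (-0.043 to 0.20) and Maf (-0.32 to 0.050). The remaining members kept their sign under these alternatives of the fit without the score, and when the score was added.

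Counts limit what can be seen for Timd4, Trem2, Flt3, Batf3, Cd209a, Clec9a, Xcr1 and Siglech, which had 91 to 270 counts over 12 libraries. The median SE of the members was 0.27 on the log2 scale, against 0.14 over all tested genes.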
